A study of Mus musculus with 9 samples.

Results

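The gene set described here holds Mest and 9 other imprinted genes that act in growth, 10 of the 49315 genes listed in each file. They are Mest, Peg3, Plagl1, Ndn, Nnat, Sgce, Igf2, H19, Dlk1 and Cdkn1c, and each was found by matching its symbol to the Ensembl identifier of 1 row. The set was chosen by measured values, namely the CPM of its genes in treated against control mice and their correlation with Mest over the libraries, so both are described here and not tested. Brown adipose tissue, the heat-producing fat of mammals, was taken from 9 male C57Bl/6J mice with diet-induced obesity, aged 14 weeks before 3 weeks of acclimation, and its polyadenylated RNA was sequenced with 1 library per mouse. The 4 control mice had received vehicle and the 5 treated mice cotadutide, a peptide that activates the receptors for glucagon-like peptide 1 and for glucagon, by daily injection under the skin for 28 days. Both groups were fed a diet with 60% fat until they weighed about 50 g, lived in single housing and were not kept at thermoneutrality. The dose is not given in the sources used here.

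An imprinted gene is transcribed mainly from the copy inherited from 1 parent, because methylation laid down in the egg or sperm sets the copies apart. Many of these genes are abundant in the embryo, control growth, and fall after birth, and paternally expressed members tend to promote growth whereas maternally expressed members tend to restrain it. Mest encodes a protein with the fold of alpha/beta hydrolases, is paternally expressed, and is known in white fat of mice as an mRNA whose level varies widely among animals as fat expands. Of the 10 genes, H19 and Cdkn1c are expressed from the maternal copy and the other 8 from the paternal copy in most tissues. Reads were not assigned to parental copies, so the values are sums over both.

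Promoter sequence is shown for Mest and Plagl1 because both hold the hexamer TGCCGC, which, when methylated, is bound by ZFP57, a protein that maintains imprints. Each line gives the 250 bases before a transcription start in the RefSeq annotation of GRCm38.p6, 5′ to 3′ on the strand of the gene, with TGCCGC or its reverse complement GCGGCA in capitals. The first stretch of Mest is chr6:30737800-30738049 (plus strand), the second, at a start farther upstream, is chr6:30733256-30733505 (plus strand), and that of Plagl1 is chr10:13090582-13090831 (plus strand).

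Mest: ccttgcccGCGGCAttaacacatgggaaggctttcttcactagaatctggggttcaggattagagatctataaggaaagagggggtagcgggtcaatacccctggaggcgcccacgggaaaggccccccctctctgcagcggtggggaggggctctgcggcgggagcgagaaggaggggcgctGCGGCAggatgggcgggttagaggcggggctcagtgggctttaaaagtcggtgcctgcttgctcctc
Mest, upstream start: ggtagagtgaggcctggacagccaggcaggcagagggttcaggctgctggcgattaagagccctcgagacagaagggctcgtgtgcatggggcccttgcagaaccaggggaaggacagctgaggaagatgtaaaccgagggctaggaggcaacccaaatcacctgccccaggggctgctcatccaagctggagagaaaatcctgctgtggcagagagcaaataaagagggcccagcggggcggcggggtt
Plagl1: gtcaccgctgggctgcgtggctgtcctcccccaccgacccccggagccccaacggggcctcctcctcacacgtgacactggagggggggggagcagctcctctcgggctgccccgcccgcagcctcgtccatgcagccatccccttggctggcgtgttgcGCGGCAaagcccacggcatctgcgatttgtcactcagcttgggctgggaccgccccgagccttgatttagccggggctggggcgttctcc

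The RefSeq table held windows of 300 bases, 250 before and 50 after a start, for 7 of the 10 genes, 12 windows in all. TGCCGC was found on either strand in 5 of these windows, belonging to Mest (2 windows that overlap), Plagl1, Nnat and Igf2, and in 11.6% of the 32851 windows of all genes. The window of the downstream start of Mest held 2 copies, where 1.53% of all windows held 2 or more, and that of the upstream start held none. The downstream window had 17 CpG dinucleotides, against 8 at the upstream start and a median of 7 over all windows. Gene-level counts do not show which start of Mest was used.

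Library totals ranged from 16.1 to 25.1 M counts (M, mega) in vehicle and from 10.8 to 19.5 M in cotadutide mice. Levels are in CPM: counts per 1 M of the library's total, once that total was scaled by edgeR's trimmed mean of M values. The tissue carried its defining mRNA, with Ucp1, the uncoupling protein of brown fat, at 4781 ± 961 CPM (SD, n = 4) in vehicle and 5886 ± 759 CPM (SD, n = 5) in cotadutide mice. Vehicle mouse 4 stood apart from the other vehicle mice for several genes below. The files hold nothing that checks its label independently, and each vehicle mean and fold change includes it unless stated. Skeletal muscle mRNA was present in every library and differed between the groups. The summed level of 12 muscle fibre markers was 21600 to 47110 CPM in vehicle and 5073 to 18860 CPM in cotadutide mice (exact two-sided permutation test, p = 0.00794, the smallest this test can give with 4 and 5 mice, adjusted over 10 marker lists 0.0397). By edgeR, 7 of the 12 markers were lower, beside 9.34% of all genes tested. In bulk tissue, fewer cells of a type and less RNA per cell cannot be told apart.

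All 10 genes were detected and passed the filter on low counts. Per kilobase of exon, H19 and Nnat were the most abundant in vehicle mice, at 102 ± 43.8 and 88.9 ± 24.5 CPM per kilobase (SD, n = 4), and their spreads overlapped. Cdkn1c (13.6 ± 3.13) and Ndn (10.2 ± 1.72) came next, followed by Mest (5.40 ± 3.40) and Peg3 (4.36 ± 0.954), and within each of these pairs the spreads overlapped too. Sgce (2.54 ± 0.466) and Igf2 (1.69 ± 0.224) were lower, and Plagl1 (0.389 ± 0.0867) and Dlk1 (0.211 ± 0.0998) were lowest, all in CPM per kilobase. In cotadutide mice Mest had moved from the fifth to the eighth place, at 1.02 ± 0.52 CPM per kilobase (SD, n = 5), under Igf2 at 1.49 ± 0.214. Dlk1, at 0.539 ± 0.221, stood above Plagl1, at 0.307 ± 0.062 CPM per kilobase. Spreads overlapped here as well, both for Mest with Igf2 and for Dlk1 with Plagl1.

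Mest was far lower in cotadutide mice and in 1 of the vehicle mice. It stood at 29.0, 18.2, 34.1 and 3.84 CPM in vehicle mice 1 to 4 and at 2.57, 2.95, 3.63, 3.30 and 7.62 CPM in cotadutide mice 1 to 5. Vehicle mice 1 to 3 were thus above every cotadutide mouse, and vehicle mouse 4 was within the cotadutide range, so the groups overlapped. The means were 21.3 ± 13.4 CPM (SD, n = 4) and 4.01 ± 2.05 CPM (SD, n = 5), and the log2 fold change of cotadutide against vehicle, from edgeR's fit, was -2.46 (SE 0.53). Without vehicle mouse 4 it was -2.81, and the 3 other vehicle mice averaged 27.1 CPM, 7.07 times the level of mouse 4. The counts behind these values were 1838 over the vehicle and 287 over the cotadutide libraries. Mest (ENSMUSG00000051855) lies on chromosome 6 from 30723547 to 30748465 on the plus strand in the mm10 coordinates of the files. Of its exon bases, 23.1% also belong to exons of Copg2 on the opposite strand, where reads of the genes could not be assigned without a stated strand setting.

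**Figure D1:**
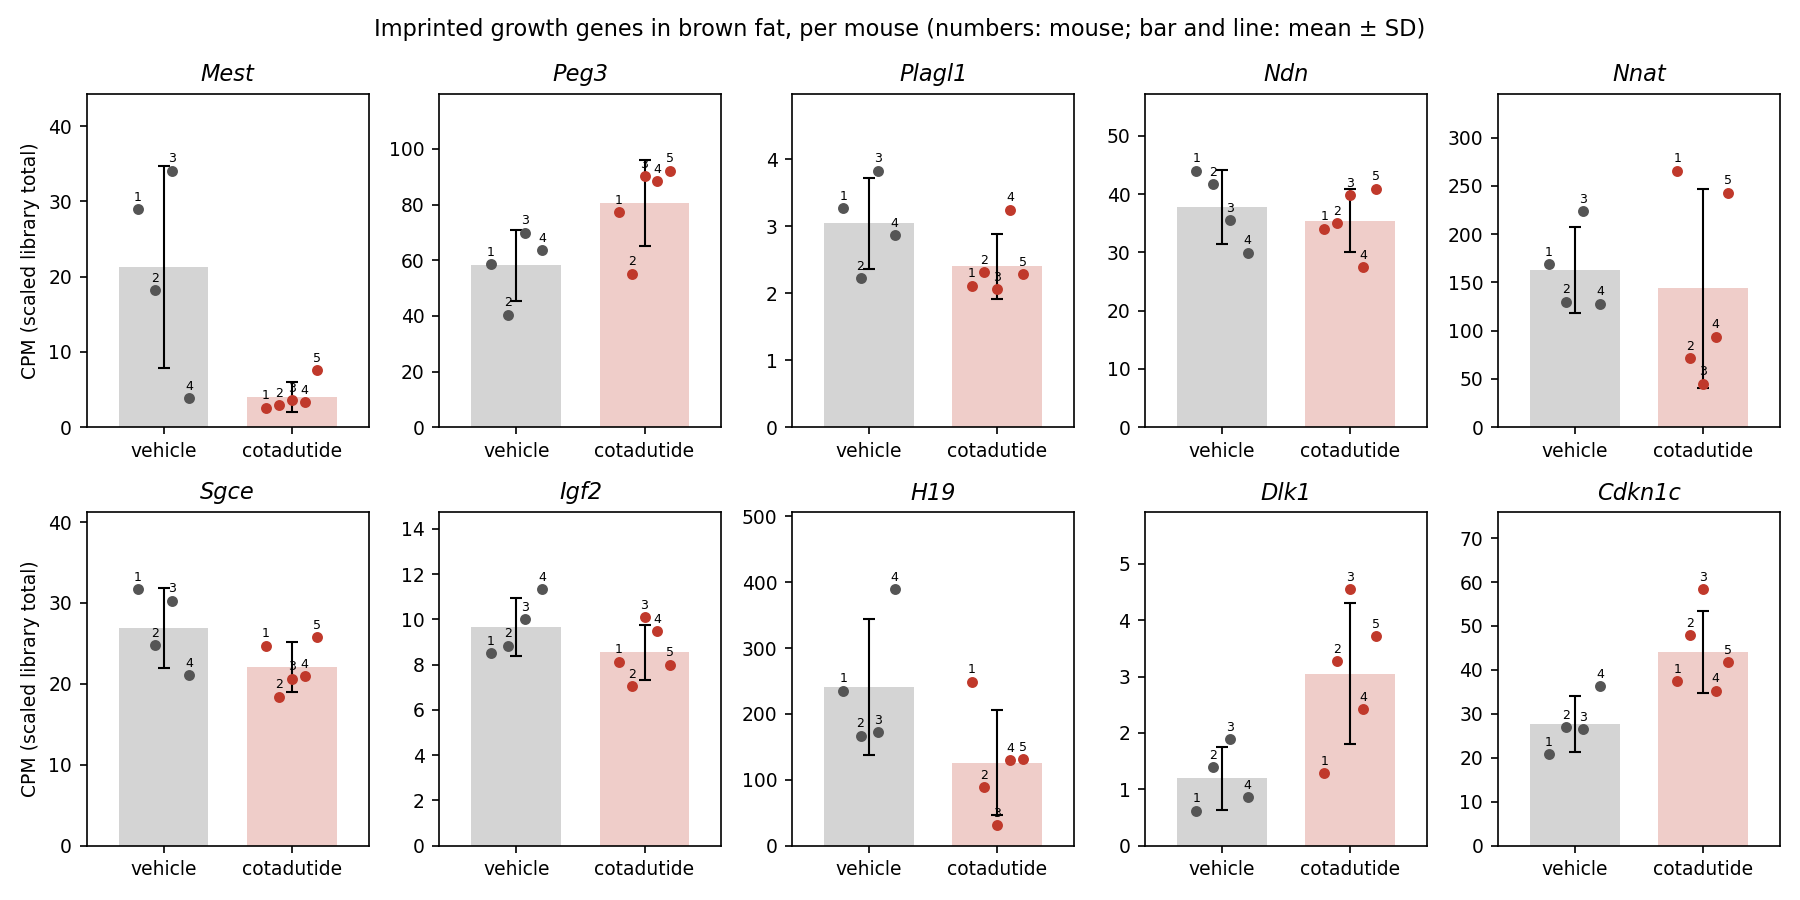
Level of each of the 10 genes in every mouse, as CPM on linear axes that start at 0. Points are mice with their number, bars are means and lines SD (4 vehicle and 5 cotadutide mice). Mest was at 18.2 CPM or more in 3 vehicle mice and at 7.62 CPM or less in all others.

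Of the 10 genes, edgeR's fit across all genes placed 2 higher (Dlk1 and Cdkn1c) and 1 lower (Mest) at an adjusted p of 0.05, beside 9.31% and 9.34% of the 14747 genes tested, or 18.7% in either direction. Since the set was chosen with this contrast known, nothing is read from that count. When each mouse was left out in turn, the call held in 5 of 9 fits for Mest, 4 for Cdkn1c and 1 for Dlk1, and limma-voom called only Cdkn1c. Sgce was called lower in 1 of these fits, without vehicle mouse 4. DESeq2 called Peg3 higher beside Mest, Dlk1 and Cdkn1c. A fit with mouse number as a block called Peg3 and Dlk1 higher and Mest lower. Groups of mice overlapped for all 10 genes, while 15.8% of all tested genes had groups without overlap, 8.06% higher and 7.79% lower in cotadutide mice. The median log2 fold change of the 10 genes was -0.18, against 0.0031 over all genes tested. They did not move as a block: 7 had a negative and 3 a positive log2 fold change. That of Nnat took the other sign without cotadutide mouse 3 (0.02).

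Peg3, Plagl1 and Ndn encode nuclear proteins. Peg3, a zinc finger protein of a paternally expressed domain on chromosome 7, stood at 58.7, 40.4, 69.9 and 63.6 CPM in vehicle and at 77.2, 55.2, 90.1, 88.5 and 92.2 CPM in cotadutide mice. Of the 5 cotadutide mice, 4 were above the highest vehicle mouse, and cotadutide mouse 2 was not (log2 fold change 0.47, SE 0.18). Plagl1, the zinc finger transcription factor also called Zac1 that binds regulatory regions of other imprinted genes, was scarce. Its vehicle values were 3.27, 2.22, 3.83 and 2.86 CPM and its cotadutide values 2.11, 2.31, 2.06, 3.25 and 2.28 CPM (log2 fold change -0.33, SE 0.21). All cotadutide mice but mouse 4 lay between 2.06 and 2.31 CPM, close to vehicle mouse 2. Ndn, or necdin, a protein of the MAGE family that binds E2F factors, ranged from 29.9 to 44.1 CPM in vehicle and from 27.5 to 40.9 CPM in cotadutide mice (log2 fold change -0.10, SE 0.14). It had the narrowest relative spread after Igf2 in vehicle mice, with a coefficient of variation of 16.8%.

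Igf2, the insulin-like growth factor of fetal growth, and H19, a long noncoding RNA of the same domain, lie close together on chromosome 7 and share enhancers. Igf2 (142650766 to 142666816) stayed within 8.52 to 11.3 CPM in vehicle and 7.05 to 10.1 CPM in cotadutide mice (log2 fold change -0.17, SE 0.13). H19 (142575529 to 142578143) was at 235, 167, 173 and 390 CPM in vehicle and at 249, 88.6, 31.4, 129.9 and 132 CPM in cotadutide mice. Of the 5 cotadutide mice, 4 were below every vehicle mouse, while cotadutide mouse 1 was above 3 of them (log2 fold change -0.93, SE 0.46). Without vehicle mouse 4 the value for H19 was -0.60, and without cotadutide mouse 1 it was -1.36. The highest level of H19 was 7.92 times the lowest among cotadutide mice, against 1.43 times for Igf2. The pair thus did not vary together: the correlation of their log2 CPM over the 9 libraries, after the mean of each group was taken out, was -0.175.

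H19 varied with the muscle mRNA of the libraries, and also with markers of other cell types. Vehicle mouse 4, with the most H19, also had the most muscle fibre mRNA (47110 CPM), and cotadutide mouse 3, with the least H19, had the least (5073 CPM). Per 1000 CPM of muscle fibre markers, H19 was at 10.9, 6.23, 7.06 and 8.27 CPM in vehicle and at 13.3, 10.1, 6.20, 10.9 and 6.99 CPM in cotadutide mice. These ratios overlapped, with means of 8.11 ± 2.03 (SD, n = 4) and 9.51 ± 2.93 (SD, n = 5). Deviations of H19 from its group means had a correlation of 0.902 with those of the summed muscle fibre markers, and 0.922 with those of 6 satellite cell markers, over 9 libraries. It was 0.786 with adipose progenitor and fibroblast markers and 0.684 with macrophage markers. With endothelial markers it was -0.783, and with mural (smooth muscle and pericyte) markers -0.765. The satellite cell markers, of which Pax7, Myf5, Myod1 and Cdh15 define muscle stem cells and myoblasts, summed to 6.13 to 15.1 CPM in vehicle and 1.64 to 8.38 CPM in cotadutide mice (exact permutation p = 0.0873, adjusted 0.109). Pax7 was at 0 in cotadutide mouse 2 and Myf5 at 0 in cotadutide mouse 3, and Pax7 and Megf10 were below the filter on low counts. The part of muscle mRNA, or of any other cell type, in the level of H19 was not tested. Groups of 4 and 5 mice are too small for a test of these correlations. Near H19, Tnnt3, a troponin of fast muscle (log2 fold change -1.25, SE 0.39, edgeR adjusted p = 0.0466), and Prr33 (-1.28, SE 0.34, edgeR adjusted p = 0.0308) were lower, while Mrpl23 was not (0.28, edgeR adjusted p = 0.0723). Tnnt3 is 1 of the 12 muscle fibre markers.

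Between the groups, Mest and muscle mRNA were both lower in cotadutide mice. Within the groups, the correlation of the deviations was -0.312 over 9 libraries. Vehicle mouse 4 had the most muscle fibre mRNA and the least Mest of its group. Cotadutide mouse 5, in contrast, had the most of both in its group (18860 CPM of muscle fibre markers and 7.62 CPM of Mest). The correlation of Mest was 0.723 with mural and -0.724 with brown adipocyte markers. Vehicle mouse 4 was the lowest of its group for mural (419 CPM) and the highest for brown adipocyte markers (9441 CPM). Over all 14747 tested genes, the 5th and 95th percentiles of the correlation with Mest were -0.766 and 0.726. Correlations with marker sums were not recomputed without vehicle mouse 4. The part of any of these cell types in the level of Mest was not tested. The 8 adipocyte markers common to brown and white fat, such as Adipoq and Fabp4, were 1.34-fold higher in cotadutide mice when summed (18430 ± 1552 against 24730 ± 1937 CPM, exact two-sided permutation test, p = 0.00794, adjusted 0.0397). By edgeR, 3 of these 8 were higher, beside 9.31% of all genes tested. Per 1000 CPM of these adipocyte markers, Mest was at 1.70, 1.02, 1.88 and 0.185 CPM in vehicle and at 0.106, 0.105, 0.155, 0.139 and 0.317 CPM in cotadutide mice, or 7.28 times lower on average. Per 1000 CPM of muscle fibre markers, Mest averaged 0.875 ± 0.622 CPM (SD, n = 4) in vehicle and 0.374 ± 0.214 CPM (SD, n = 5) in cotadutide mice, or 2.34 times lower. Deviations of Mest had a correlation of -0.666 with those of the shared adipocyte markers. Vehicle mouse 4 was the highest of its group for these markers (20670 CPM).

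**Figure D2:**
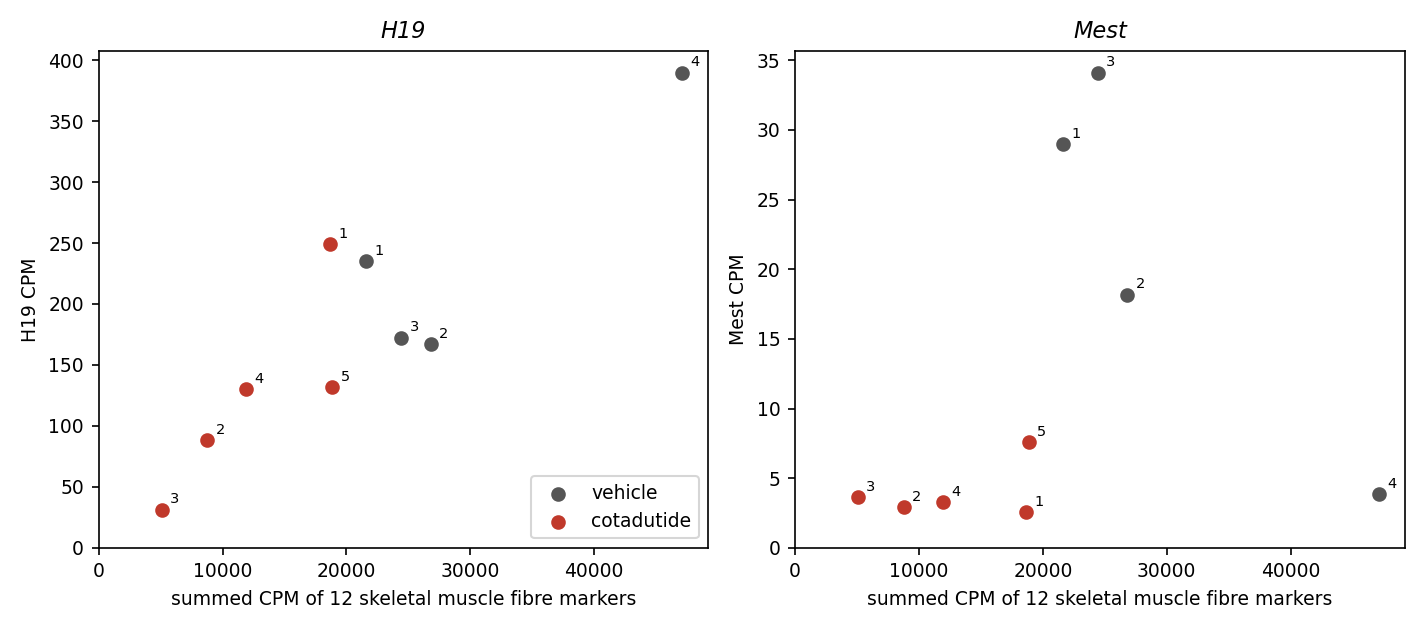
H19 (left) and Mest (right) in CPM against the summed CPM of 12 skeletal muscle fibre markers, 1 point per mouse with its number, linear axes from 0. H19 was highest in vehicle mouse 4 and lowest in cotadutide mouse 3, as was the muscle sum, while Mest was at 3.84 CPM in vehicle mouse 4.

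Nnat, or neuronatin, is a small membrane proteolipid reported to act on calcium pumps of the endoplasmic reticulum. It spread widely among treated mice, at 266, 71.3, 45.1, 93.9 and 243 CPM in cotadutide mice 1 to 5 against 169, 130.0, 224 and 128 CPM in vehicle mice. Cotadutide mice 1 and 5 were above every vehicle mouse and the other 3 below every one, so the log2 fold change of -0.18 (SE 0.47) stands for no mouse. Its deviations had a correlation of 0.891 over 9 libraries with the summed level of 10 fibroblast and adipose progenitor markers, and of 0.737 with muscle fibre markers; the part of either in its level was not tested. The progenitor markers summed to 991 to 1560 CPM in vehicle and 622 to 1258 CPM in cotadutide mice (exact permutation p = 0.0635, adjusted 0.0907), and 1 of the 10, Cd34, passed edgeR's test. None of 6 calcium pumps and their small regulators passed edgeR's test (1 at an unadjusted p under 0.05, Atp2a1, which is also a muscle fibre marker and had an adjusted p of 0.0312 with DESeq2 and 0.0399 with limma-voom). Among the calcium pumps, Atp2a2 was at 425 ± 125 and 309 ± 115 CPM (edgeR adjusted p = 0.251) and Atp2a3 at 15.9 ± 1.22 and 14.3 ± 2.11 CPM (edgeR adjusted p = 0.356), with n = 4 and 5.

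Sgce, the epsilon subunit of the sarcoglycans, which link the cytoskeleton to the matrix through dystroglycan, was at 31.7, 24.8, 30.3 and 21.1 CPM in vehicle and 24.7, 18.4, 20.6, 21.0 and 25.8 CPM in cotadutide mice. Vehicle mice 1 and 3 were above every cotadutide mouse (log2 fold change -0.29, SE 0.14). Of the other sarcoglycan and dystrophin genes, 5 of 10 tested fell, among them Sgcb, Sspn, Dmd and Dtna, beside 9.34% of all genes tested. Dtna, which encodes a dystrobrevin, was at 9.87 to 15.3 CPM in vehicle and at 2.35 to 8.13 CPM in cotadutide mice (edgeR adjusted p = 0.0263, log2 fold change -1.21 with SE 0.31). Dmd, which encodes dystrophin, went from 20.8 ± 2.83 to 13.1 ± 2.83 CPM (edgeR adjusted p = 0.0204, log2 fold change -0.67 with SE 0.16). Muscle fibre markers were lower in the same mice, as given above, and their part in these falls was not tested. Utrn, the more widely expressed relative of dystrophin, was at 78.8 ± 12.6 and 72.9 ± 6.76 CPM (edgeR adjusted p = 0.489). Deviations of Sgce had a correlation of 0.0982 with muscle fibre markers and of 0.684 with fibroblast and adipose progenitor markers. With shared adipocyte markers it was -0.723 and with brown adipocyte markers -0.615. Vehicle mouse 4 was the lowest of its group for Sgce and the highest for both adipocyte sums. The part of these cells in the level of Sgce was not tested.

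Dlk1 and Cdkn1c were higher in most cotadutide mice. Dlk1, also called Pref-1, a membrane and secreted relative of Notch ligands that restrains adipocyte differentiation, was at 0.622, 1.40, 1.89 and 0.864 CPM in vehicle and 1.29, 3.27, 4.55, 2.42 and 3.71 CPM in cotadutide mice. Cotadutide mice 2 to 5 were above every vehicle mouse, and cotadutide mouse 1 was within their range (log2 fold change 1.35, SE 0.40). It rested on 98 and 223 counts over the groups. Cdkn1c, the p57 inhibitor of cyclin-dependent kinases, was at 20.8, 27.0, 26.5 and 36.3 CPM in vehicle and 37.5, 47.95, 58.4, 35.3 and 41.7 CPM in cotadutide mice. Again 4 of 5 cotadutide mice were above all vehicle mice, and vehicle mouse 4 was the highest of its group (log2 fold change 0.68, SE 0.18). Without vehicle mouse 4 the value for Cdkn1c was 0.83. The 7 macrophage markers, 5 of them lower by edgeR beside 9.34% of all genes tested, summed to 229 to 376 CPM in vehicle and 137 to 264 CPM in cotadutide mice. Deviations of Dlk1 had a correlation of -0.856 with them over 9 libraries. It was also 0.709 with mural, -0.674 with fibroblast and adipose progenitor, -0.645 with satellite cell and 0.564 with endothelial markers. For Cdkn1c it was -0.605 with macrophage and -0.631 with fibroblast and adipose progenitor markers. The part of any of these cells in the level of Dlk1 or Cdkn1c was not tested.

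Among partners of Dlk1, Notch2 fell from 15.96 ± 1.20 to 11.7 ± 1.55 CPM (edgeR adjusted p = 0.0239, log2 fold change -0.45, SE 0.11). Heyl, a transcriptional repressor induced by Notch, rose from 12.99 ± 0.895 to 28.8 ± 12.2 CPM (edgeR adjusted p = 0.0216, log2 fold change 1.15, SE 0.27), and the other 9 of 11 Notch receptors, ligands and targets tested did not pass. Of 11 kinases, cyclins and sister inhibitors beside Cdkn1c, Ccnd1 and Ccna2 fell. Ccnd1, which encodes cyclin D1, was at 16.1, 16.5, 12.6 and 4.97 CPM in vehicle and at 5.61, 3.01, 3.70, 3.36 and 4.57 CPM in cotadutide mice (log2 fold change -1.64, SE 0.32, edgeR adjusted p = 0.0163). As for Mest, vehicle mouse 4 was within the cotadutide range. Ccna2, a cyclin of dividing cells, went from 2.169 ± 0.632 to 0.988 ± 0.182 CPM (edgeR adjusted p = 0.0186), and E2f1, a partner of necdin, from 3.49 ± 0.852 to 1.49 ± 0.522 CPM (edgeR adjusted p = 0.0184), the only 1 of 6 tested MAGE family and E2F genes to pass. Cdkn1a, the sister inhibitor p21, was at 48.2, 52.9, 39.1 and 174 CPM in vehicle and at 139.9, 130.5, 215, 192 and 112 CPM in cotadutide mice (edgeR adjusted p = 0.108, limma-voom 0.0439). Of the IGF2 axis, 1 of 11 tested genes rose, the insulin receptor Insr (70.9 ± 8.98 against 89.9 ± 9.58 CPM, edgeR adjusted p = 0.0445). Igf2r, which clears IGF2 from the cell surface, was at 64.8 ± 4.73 and 56.1 ± 3.99 CPM (edgeR adjusted p = 0.0813), and Igf1r at 13.4 ± 1.02 and 12.3 ± 1.18 CPM (edgeR adjusted p = 0.393). The counts for these lists stand beside 9.31% of all genes tested called higher and 9.34% called lower. The lists were chosen with results of these data known.

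Next come 7 genes reported to vary with Mest in expanding white fat of mice. Of these, 4 were lower by edgeR (Lep, Npr3, Sfrp5 and Cav2), beside 9.34% of all genes tested. The list was chosen with results of these data known, so nothing is read from that count. Sfrp5, a secreted antagonist of Wnt signals, was at 12.5, 9.58, 15.3 and 6.64 CPM in vehicle and at 6.74, 3.27, 4.55, 5.29 and 4.95 CPM in cotadutide mice (log2 fold change -1.14, SE 0.25, edgeR adjusted p = 0.0185). Vehicle mouse 4 was within the cotadutide range for Sfrp5, as it was for Mest. Lep, which encodes leptin, was at 320, 300.1 and 271 CPM in vehicle mice 1 to 3, at 50.3 CPM in vehicle mouse 4, and at 14.2 to 44.3 CPM in cotadutide mice. Npr3, the natriuretic peptide clearance receptor, was at 348 to 377 CPM in vehicle mice 1 to 3, at 96.5 CPM in mouse 4 and at 48.5 to 73.1 CPM in cotadutide mice. For these 2 genes vehicle mouse 4 lay nearer to the cotadutide mice than to its own group, but outside their range. Bmp3 (4.29 ± 1.97 against 2.29 ± 1.26 CPM, edgeR adjusted p = 0.151) and Cav1 (697 ± 112 against 544 ± 53.2 CPM, edgeR adjusted p = 0.0593) did not pass with edgeR, and Cav1 did with DESeq2 (0.0328). Vehicle mouse 4 was the lowest of its group for Cav1 (542 CPM) and for Cav2 (102 CPM), and within the cotadutide range for both. Over all tested genes, vehicle mouse 4 was within the cotadutide range for 59.1%, against 43.2% to 47.9% for the other vehicle mice.

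**Figure D3:**
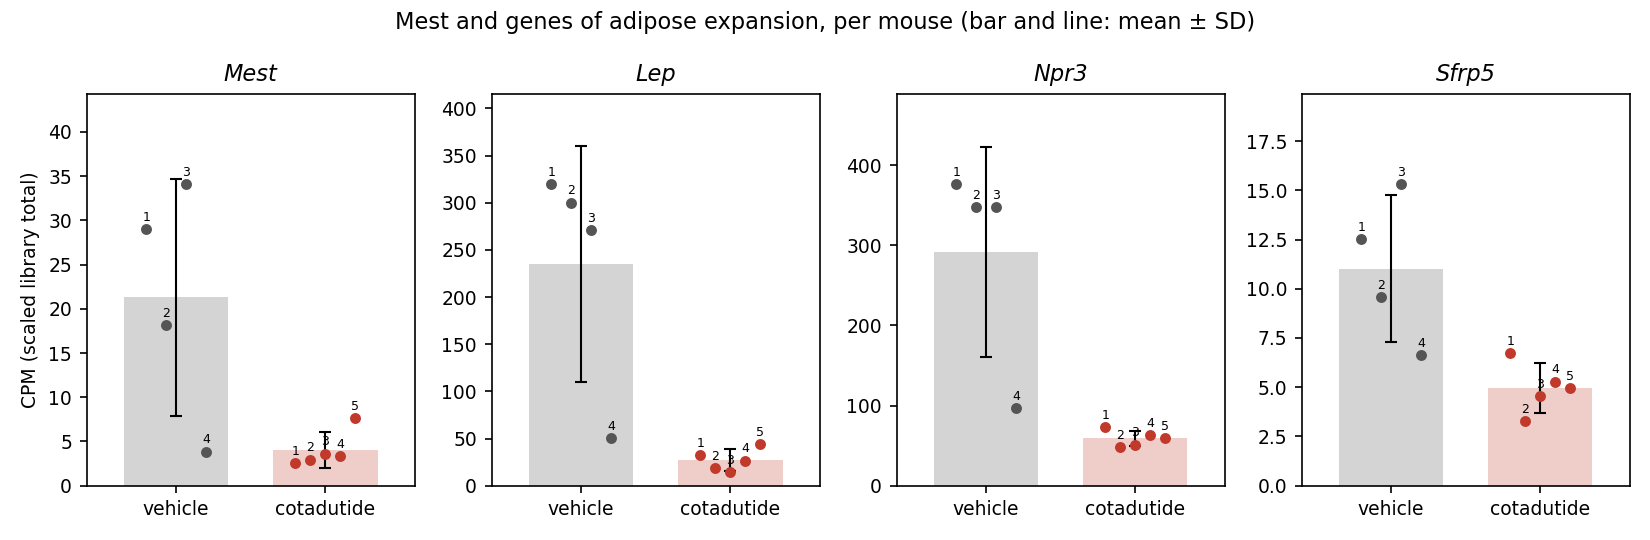
Mest, Lep, Npr3 and Sfrp5 in every mouse, as CPM on linear axes from 0. Points are mice with their number, bars means and lines SD (4 vehicle and 5 cotadutide mice). In each panel vehicle mouse 4 is the lowest vehicle mouse, at 3.84, 50.3, 96.5 and 6.64 CPM.

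Of the genes around Mest, Copg2 and Cep41 were tested within 100 kilobases. Copg2, which encodes a coatomer subunit and overlaps the end of Mest on the opposite strand, was at 30.4 ± 4.15 and 26.9 ± 1.25 CPM (edgeR adjusted p = 0.211, log2 fold change -0.18 with SE 0.096). Cep41, a centrosomal protein gene, was at 3.06 ± 0.724 and 1.94 ± 0.562 CPM (edgeR adjusted p = 0.085, log2 fold change -0.64 with SE 0.25). Farther out, 208 kilobases beyond the end of Mest, lies Klf14, a maternally expressed transcription factor gene of the same imprinted region that is known to act in fat. Klf14 was picked for mention once its counts were known, and it was too scarce to be tested. Klf14 had 20, 11, 19 and 1 counts in vehicle mice 1 to 4 and 3, 1, 0, 0 and 4 counts in cotadutide mice 1 to 5. Over all vehicle libraries this came to 0.612 CPM of the raw totals (exact 95% Poisson interval 0.456 to 0.804), against 0.101 CPM (0.0434 to 0.198) over the cotadutide libraries. Over the first 3 vehicle libraries, a split made after the counts were seen, it was 0.778 CPM (0.577 to 1.03). Vehicle mouse 4, at 0.0524 CPM (0.00133 to 0.292), was again low, and these intervals cover counting error only. Over all 10 genes, 22 neighbours within 100 kilobases were tested and 5 passed, all lower: Lsp1, Prr33 and Tnnt3 near H19, Meg3 near Dlk1 and Cars near Cdkn1c. This was 22.7%, beside 18.7% of all genes tested.

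Of 47 imprinted genes outside the set, 30 were tested, and 1 rose and 3 fell by edgeR, or 13.3%, beside 18.7% of all genes tested. Those that fell were Snrpn, a splicing protein gene (29.9 ± 1.29 and then 23.5 ± 1.78 CPM, edgeR adjusted p = 0.0188, log2 fold change -0.35, SE 0.079), and the noncoding RNAs Meg3 and Rian. Meg3 and Rian are maternally expressed from the domain of Dlk1 on chromosome 12. Meg3 went from 35.2 ± 4.90 to 28.4 ± 1.72 CPM (edgeR adjusted p = 0.0449, log2 fold change -0.31 with SE 0.096) and Rian from 17.1 ± 1.13 to 13.2 ± 1.19 CPM (edgeR adjusted p = 0.024, log2 fold change -0.37 with SE 0.093), opposite in sign to Dlk1. H13, which encodes signal peptide peptidase, rose from 76.8 ± 12.96 to 102 ± 9.91 CPM (edgeR adjusted p = 0.0318, log2 fold change 0.41, SE 0.11), and vehicle mouse 4, at 96.1 CPM, was within the cotadutide range. Peg10, which shares its promoter region with Sgce, was at 1.65 ± 0.287 and 1.18 ± 0.661 CPM (edgeR adjusted p = 0.345), and Kcnq1ot1, the noncoding RNA of the domain of Cdkn1c, at 16.3 ± 3.86 and 17.7 ± 2.57 CPM (edgeR adjusted p = 0.615). Grb10, a growth-restraining adaptor, was below every vehicle mouse in all 5 cotadutide mice (21.4 ± 1.115 against 14.6 ± 4.22 CPM). It did not pass with edgeR (adjusted p = 0.0559) but did with DESeq2 (0.0261) and limma-voom (0.0415). Slc38a4, an amino acid transporter gene, had the most negative log2 fold change of the 30 (-1.35, SE 0.51, edgeR adjusted p = 0.0862), with 28.3 CPM in vehicle mouse 4, 6.89 to 12.6 CPM in the other vehicle mice and 2.21 to 10.7 CPM in cotadutide mice.

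**Figure D4:**
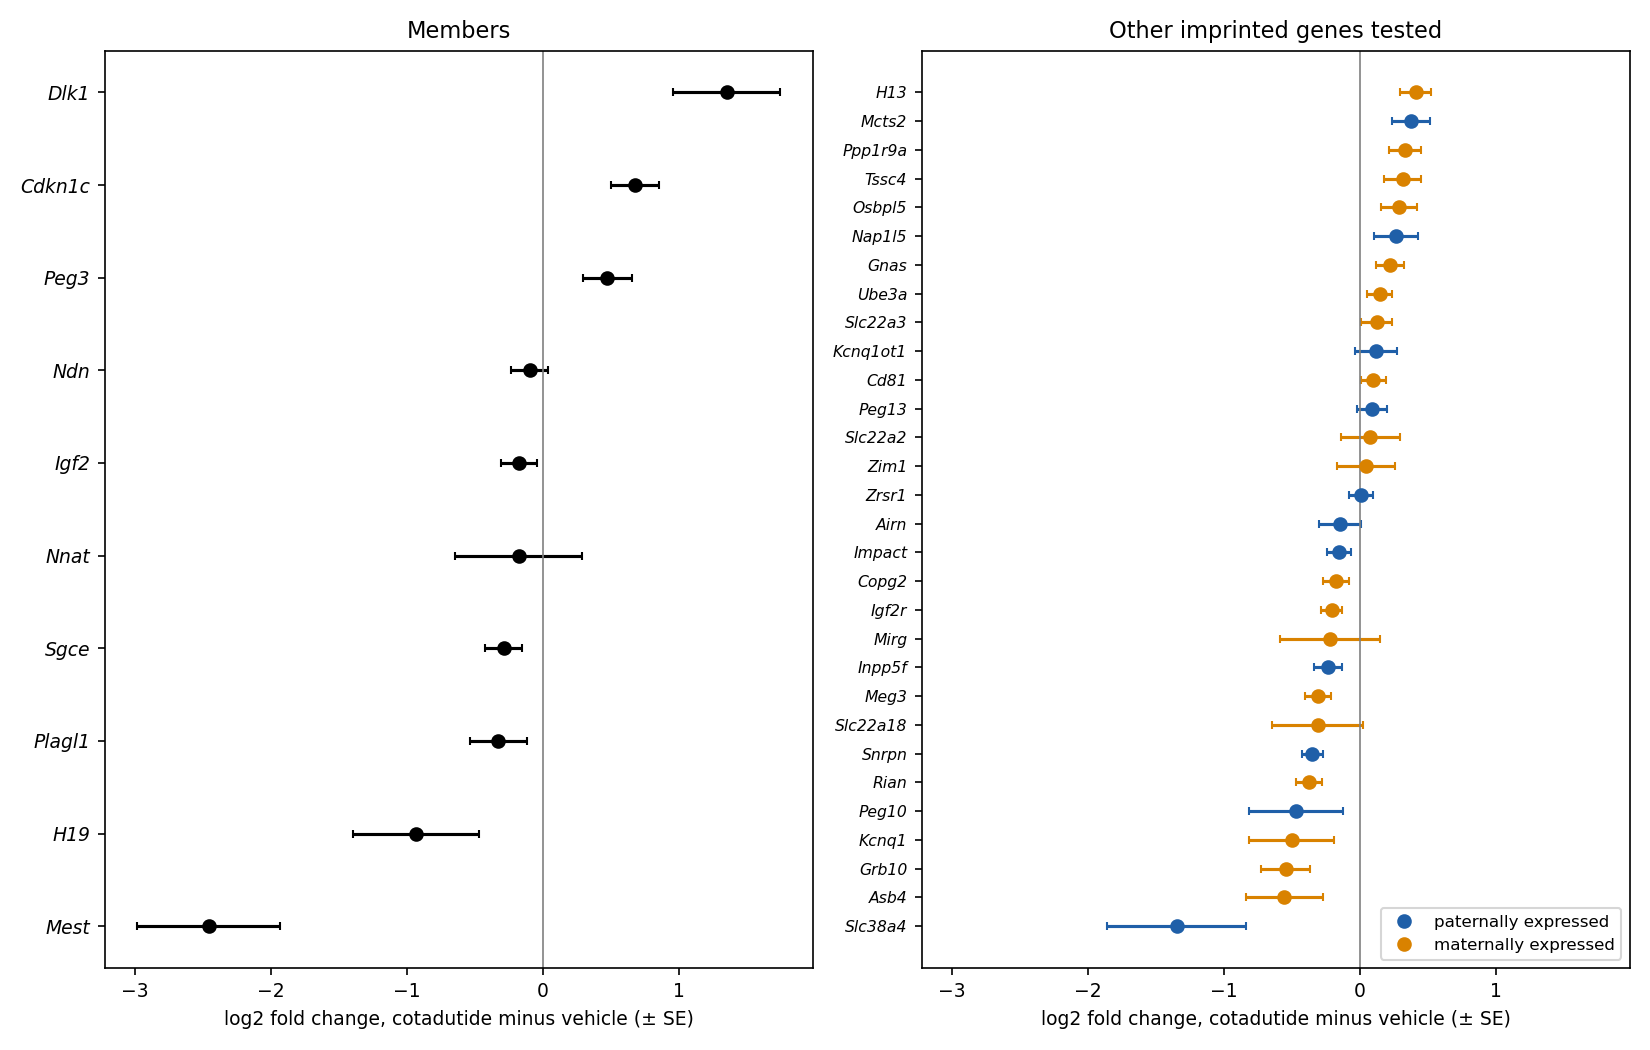
Log2 fold change of cotadutide against vehicle, with its SE as bars, for the 10 genes of the set (left) and for 30 other imprinted genes tested (right, blue paternally and orange maternally expressed). Mest, at -2.46, lies farthest from 0 of all genes drawn.

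Likeness to Mest within the groups was described by the correlation of log2 CPM over the 9 libraries after each group mean was taken out. Sgce came closest among the set (0.783), then Ndn (0.64), while Cdkn1c (-0.526), Igf2 (-0.414) and H19 (-0.345) ran the other way. Vehicle mouse 4 weighed on these values. Without it, those of Sgce and Ndn were 0.615 and 0.322, those of Cdkn1c, Igf2 and H19 lay between -0.0432 and 0.093, and that of Peg3 went from 0.137 to 0.659. Over all 14747 tested genes, the 5th and 95th percentiles of the correlation with Mest were -0.766 and 0.726, and of the set only Sgce was outside them. The 5 abundant protein-coding genes most like Mest were Phka2, Ing3, Mgat2, Pygb and Ezh1, at 0.954 to 0.959, and at 0.827 to 0.881 without vehicle mouse 4. Their levels differed little between the groups, with log2 fold changes from -0.24 to -0.068 (edgeR adjusted p from 0.119 to 0.73). Libraries share their depth and cell makeup across all genes, and no p is given for these correlations.

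Calls of single genes depended on single libraries. Of the 19 genes called in the lists of imprinted and related genes (marker lists and neighbours aside), 2 remained called in every fit that left out 1 mouse, Lep and Npr3. Only these 2 were still called without vehicle mouse 1 or without vehicle mouse 2, 8 were without vehicle mouse 3 and 9 without cotadutide mouse 2. The highest edgeR adjusted p in those fits was 0.0601 for Snrpn, 0.126 for Meg3, 0.0738 for Rian, 0.0984 for H13, 0.061 for Sfrp5, 0.0573 for Ccnd1, 0.0732 for Heyl and 0.134 for Insr. Over all 17 that lost a call it ran from 0.0546 (Dmd) to 0.134 (Insr), and among genes outside the 19 it was 0.116 for Lsp1, 0.1 for Prr33, 0.15 for Tnnt3, 0.0989 for Cars and 0.107 for Cd34. The direction of each of the 19 stayed the same in these fits.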

How the data were processed

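Per the submitters' processing notes, reads were handled with bcl2fastq 2.17, Trimmomatic 0.36, STAR 2.5.2b and featureCounts of Subread 1.5.2 on build mm10; the sources used here give neither strand setting nor annotation release. The authors deposited raw counts per Ensembl gene, 1 file per library, with exon coordinates and summed exon length. Symbols came from the supplied table (48970 of 49315 identifiers). Counts were filtered with filterByExpr (14747 genes kept) and tested with edgeR 4.0.16 (TMM scaling, robust quasi-likelihood F test, group as the only term, Benjamini-Hochberg adjusted p of 0.05 over all genes tested) in R 4.3.3, a script also tested on simulated data. SE was derived as the size of the log2 fold change over √F. Log2 CPM used a prior count of 2. Marker sums were compared over all splits into 4 and 5 libraries. Mouse numbers name separate animals and do not pair the groups. Libraries differed by more than counting noise (lowest chi-square per degree of freedom 12.7).

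The members and lists were chosen with earlier results of these data known. Named genes were the 10 members, tested genes within 100 kilobases of Mest, the called genes of each list with the smallest adjusted p (at most 5), the most abundant markers and the 5 genes with a mean of at least 5 CPM most like Mest; not all are printed, and related genes that did not pass, and neighbours of H19, were added after their values were seen. Alternatives were other scaling, filters, DESeq2 1.42.0, limma-voom (limma 3.58.1), a block for mouse number and leaving out each mouse. A gene of the lists is not reported here by name.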

Additional observations from a re-analysis of the deposited data

Results flagged for a closer look

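Within a group, 1 mouse stood far from the others in 3 of the 40 sets of values examined (10 genes and 10 marker sums in 2 groups), where chance gives about 1 in 20. Mest was at 7.62 CPM in cotadutide mouse 5, the highest of its group. Plagl1 was at 3.25 CPM in cotadutide mouse 4, against 2.31 CPM or less in the other cotadutide mice. The summed adipocyte markers were at 28130 CPM in cotadutide mouse 2, above the other cotadutide mice.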

How the results depend on the processing

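Across 16 alternatives, each of the 10 genes kept its log2 fold change within 1 SD of its replicates in all 160 values. This SD is the spread of log2 CPM among mice of a group, a wide limit for variable genes. Within it, Nnat ran from -0.75 to 0.02 and H19 from -1.36 to -0.60. Mest ranged from -2.81 to -2.15 when 1 mouse was left out and from -2.54 to -2.23 otherwise. The split of 1373 genes higher and 1378 lower became 1046 and 1658 with raw library totals, and 1674 and 1718 with DESeq2. With no filter, edgeR called 900 genes higher, 1 member higher and 0 lower (2 lower at an unadjusted p under 0.05). Limma-voom called 1 member higher and 0 lower (2 at an unadjusted p under 0.05), where DESeq2 called 3 and 1. Leaving out 1 mouse gave 42 to 2116 genes higher and 92 to 1724 lower, 0 to 2 members in either direction, 0 to 2 other imprinted genes higher and 0 to 5 lower (at an unadjusted p under 0.05, 2 to 3 members higher, 1 to 3 lower, and 2 to 6 and 5 to 8 other imprinted genes). Calls were fewest without vehicle mouse 1 or 2, and the cause was not tested. Raw library totals, for marker sums a setting added after seeing the data, brought the brown adipocyte, macrophage, Schwann and mesothelial sums past the threshold (exact permutation test, adjusted p = 0.0397 each, against 0.0529 to 0.0794).

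With mouse number as a replicate block (8 libraries), edgeR called 479 genes higher and 876 lower, and 0 and 1 other imprinted genes (3 and 5 at an unadjusted p under 0.05). Same-numbered mice share only a number: correlations of their deviations were 0.135, -0.04, 0.0229 and -0.0107. At 98 to 256 counts over the vehicle libraries, counting error limits Dlk1 and Plagl1 most.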
